A study of Mus musculus with 12 samples.

Results

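Replicating the genome before a cell divides takes a set of proteins that prepare origins, unwind and copy the strands, and supply nucleotides. The mRNAs of 50 mouse genes for these proteins were examined here. The genes came from a list of origin licensing, replication fork, and nucleotide supply genes. Together they span 10 roles, from licensing to nucleotide supply. Each of the 50 matched 1 of the 55536 gene identifiers in the deposited table, and all 50 were among the 14499 genes with enough counts to be tested.

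The study asked how the surface under C2C12-GFP cells changes the muscle fibers they form. C2C12-GFP is a mouse myoblast line that carries green fluorescent protein and fuses into myotubes when serum is lowered. The cells were differentiated on plates left bare, the control, or with a coating of Fibronectin, Collagen I, or Geltrex™, a basement membrane extract rich in laminin, and RNA-seq was done on 3 samples of each of the 4 groups. The day of RNA sampling is not in the labels, and it is not stated whether the 3 samples of a group were separate cultures.

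Origins are licensed before S phase, when the origin recognition complex, *Cdc6*, and *Cdt1* load the ring-shaped MCM helicase onto DNA. Kinases then recruit *Cdc45* and the GINS complex, the helicase starts to unwind, and polymerases follow with the sliding clamp, which other factors load. Genes of this machinery are known targets of E2F transcription factors, and myoblasts leave the cell cycle as they become myotubes.

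Total counts per sample lay between 22520404 and 27351766. Gene positions are those of GENCODE M21 on GRCm38. Levels are given as CPM, counts scaled to the size of each library by TMM, in the order of samples 1, 2, and 3 of each group. Summed over the 50 genes, the level was 998, 1081 and 1083 CPM in the control, 911, 893 and 912 CPM on Collagen I, 1408, 1608 and 1566 CPM on Fibronectin, and 1506, 1572 and 1518 CPM on Geltrex™. The mean sums were 1054 ± 48.7 in the control, 906 ± 10.7 on Collagen I, 1527 ± 105 on Fibronectin, and 1532 ± 35.4 on Geltrex™ (SD over 3 samples). All 6 samples on Fibronectin and Geltrex™ lay above all 6 others, and the 3 on Collagen I lay below the 3 of the control. In bulk RNA, fewer cells that express a gene and less of its RNA per cell cannot be told apart.

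**Figure D1:**
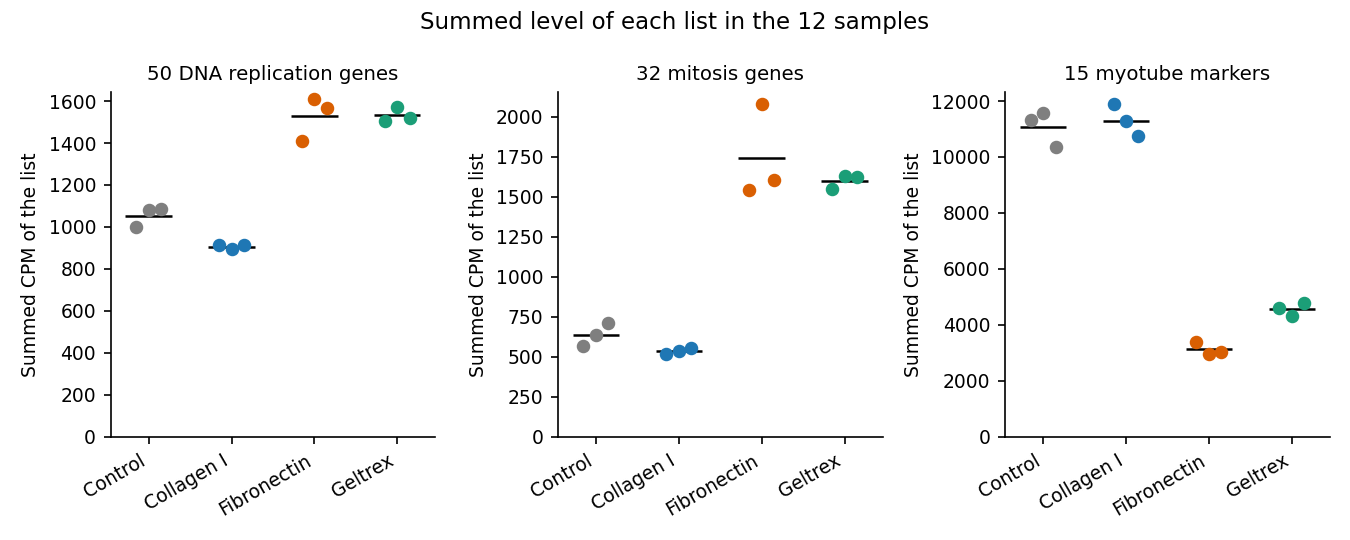
Summed CPM of the 50 DNA replication genes, 32 mitosis genes, and 15 myotube markers in each of the 12 samples (points), with the group mean as a line. The replication sums lay between 1408 and 1608 CPM on Fibronectin and Geltrex™ and between 893 and 1083 CPM in the other 6 samples.

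The 6 comparisons among the 4 groups came from 1 fit and share samples, so they are not independent of each other. A gene passed at an adjusted p of at most 0.05 over all genes tested, and a differentially expressed gene (DEG) also had a fold change of at least 2. These p-values measure the spread between samples, which may be technical. The 3 Geltrex™ samples differed less from each other than those of the other groups, so they may share material. P-values of Geltrex™ comparisons may then be too low, and those of the other comparisons too, as 1 fit pools the spread of all groups. The Geltrex™ samples were therefore also summed into 1, a fit in which the spread comes from the other groups alone. On Fibronectin against Collagen I, 37 of the 50 genes passed as higher and 1 as lower, beside 22.9% and 22.1% of all genes tested. Their median log2 fold change was 0.88, and that of all genes tested was -0.022. On Geltrex™ against Collagen I, 41 passed as higher and 1 as lower, where 19% and 18.2% of all genes did so. The median was 0.93 for the 50 genes and -0.026 for all.

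Counts against the control were similar. On Fibronectin 38 genes passed as higher and 1 as lower, where the shares of all genes tested were 17.1% and 14.7%, and the median was 0.69 beside -0.016. On Geltrex™ 40 passed as higher and 1 as lower, with 16.4% and 16.6% of all genes, and the median was 0.74 beside -0.012. Most members were thus higher on both coatings, whether set against the control or against Collagen I. Higher DEGs numbered 18 on Fibronectin and 22 on Geltrex™ over Collagen I, and 13 and 15 over the control. The shares of all genes tested that were higher DEGs were 3.6%, 4.56%, 2.42%, and 4.15% in the same order. By edgeR 0 members were lower DEGs in these 4 comparisons, where 704, 691, 614, and 723 of the 14499 genes tested were, in that order. At an unadjusted p below 0.05, 1 member was lower in each comparison, by edgeR and by DESeq2 alike. The shares of all genes that were lower at that threshold lay between 20.4% and 26.3% by edgeR and between 19.65% and 25.3% by DESeq2.

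The 50 genes fell into 4 sets by these 4 comparisons of Fibronectin and Geltrex™ with the control and Collagen I. Higher in all 4 were 35 genes. *Gins3* was lower in all 4. Of all genes tested, at most 16.4% could be higher in all 4, the share that was higher on Geltrex™ over the control. At most 14.7% could be lower in all 4, the share that was lower on Fibronectin over the control. Higher in 1 to 3 of the 4 comparisons were 8 genes: *Cdc45*, *Pola2*, *Pole2*, *Pold1*, *Rfc1*, *Rfc3*, *Rfc4*, and *Rrm2*. The remaining 6, *Gins4*, *Pold2*, *Pold3*, *Rfc2*, *Rpa2*, and *Rpa3*, passed in no comparison. These sets are those of the main fit. With the Geltrex™ samples summed into 1, fewer members and a smaller share of all genes passed as higher on Geltrex™, so fewer than 35 could be higher in all 4. *Gins3* lost its pass over Collagen I. The median log2 fold changes of the 50 genes in that fit were 0.75 over the control and 0.95 over Collagen I. By group means, 34 genes were highest on Geltrex™ and 13 on Fibronectin, and 33 were lowest on Collagen I and 13 in the control. In 44 genes both the Fibronectin and the Geltrex™ mean lay above both other means.

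**Figure D2:**
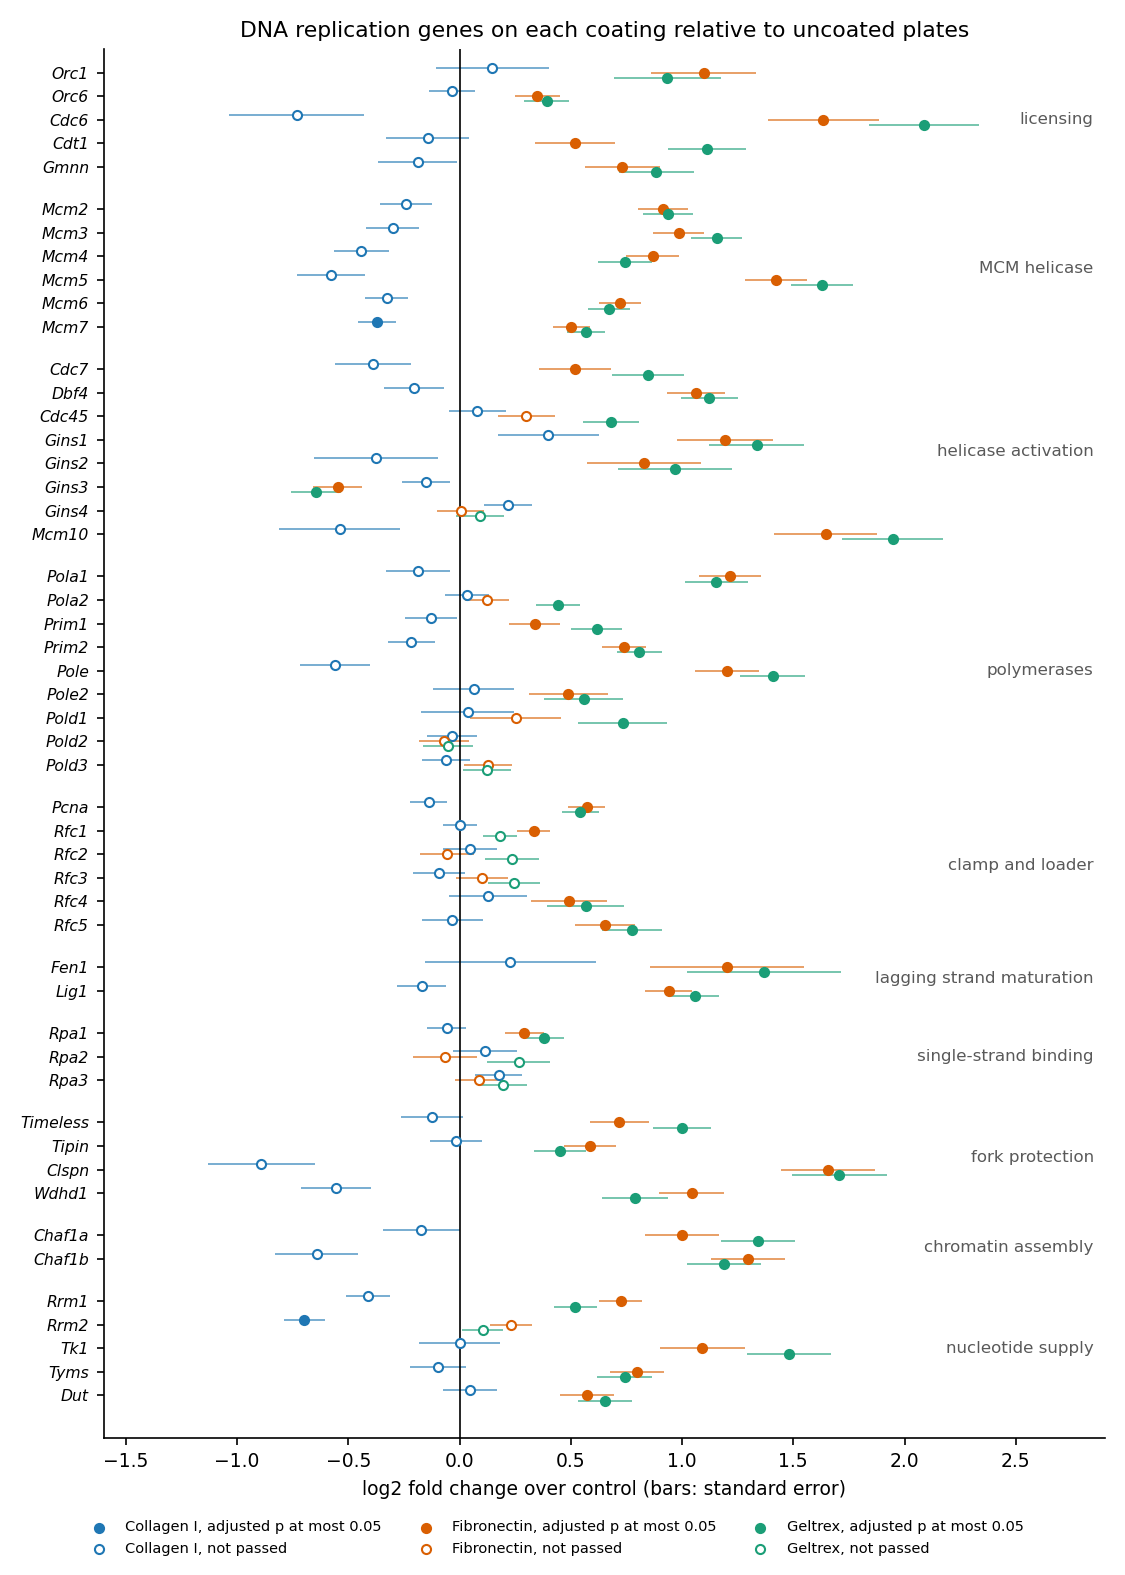
Log2 fold change of the 50 genes over the control on Collagen I (blue), Fibronectin (orange), and Geltrex™ (green), grouped by role, with bars for the standard error and filled points for an adjusted p of at most 0.05. Most Fibronectin and Geltrex™ points lie right of 0, and on Collagen I only *Mcm7* and *Rrm2* passed, both below 0.

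RefSeq promoters of the GRCm38.p6 build were on hand for 41 of the 50 genes, with 47 promoters in all. The genes without an entry were *Gmnn*, *Tipin*, *Gins1*, *Pole*, *Mcm4*, *Prim2*, *Rfc2*, *Gins2*, and *Gins4*. In the 250 bases before each start, 3 motifs were searched on both strands: the E2F element TTTNNCGC, the CHR element TTTGAA or TTCGAA, and the CCAAT box CCAAT. The E2F element was in 8 of the 47 promoters (17%), beside 4.28% of all 32851 promoters in the table. A CCAAT box was in 24 (51.1%), beside 33.8%, and both were in 7 (14.9%), beside 1.57%. The CHR element was in 8 (17%), beside 17.1% of all. So the E2F element and the CCAAT box were in a larger share of these promoters than of all, and the CHR element was not. None of the 3 was in 19 promoters (40.4%), beside 52.7% of all. The median GC content was 61.2% in these promoters and 52.4% in all. The 8 genes with the E2F element were *Cdc6*, *Gins3*, *Mcm5*, *Mcm6*, *Mcm7*, *Orc1*, *Pola1*, and *Rfc3*. A match is a run of letters in this window and says nothing about a bound factor.

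Printed here are the promoters of the 6 of these 8 genes whose levels in every sample are given further on. Of these, 5 are of genes that rose on Fibronectin and Geltrex™, and *Gins3* is the member that fell. Each runs 5′ to 3′ on the strand of the gene and ends at the base before its RefSeq start, and capitals mark any of the 3 motifs. The GENCODE start can differ. By the gene positions given further on, the windows of *Cdc6* and *Mcm7* lie inside the gene, and that of *Gins3* runs past its start. They lie at chr11:98907901-98908150 on the plus strand (*Cdc6*), chr8:75109259-75109508 on the plus strand (*Mcm5*), chr1:128359706-128359955 on the minus strand (*Mcm6*), chr5:138171884-138172133 on the minus strand (*Mcm7*, 1 of its 2 entries), chrX:93632156-93632405 on the minus strand (*Pola1*), and chr8:95633309-95633558 on the plus strand (*Gins3*).
Cdc6: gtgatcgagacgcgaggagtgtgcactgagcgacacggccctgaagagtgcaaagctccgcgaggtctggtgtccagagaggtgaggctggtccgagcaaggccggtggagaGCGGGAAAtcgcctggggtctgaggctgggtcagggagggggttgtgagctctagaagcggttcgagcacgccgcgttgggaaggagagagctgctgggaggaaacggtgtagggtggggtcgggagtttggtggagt
Mcm5: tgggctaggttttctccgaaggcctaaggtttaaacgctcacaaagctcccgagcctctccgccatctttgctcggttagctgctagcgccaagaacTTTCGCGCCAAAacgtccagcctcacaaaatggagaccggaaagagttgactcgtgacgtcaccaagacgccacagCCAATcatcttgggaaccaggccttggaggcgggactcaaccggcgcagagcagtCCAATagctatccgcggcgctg
Mcm6: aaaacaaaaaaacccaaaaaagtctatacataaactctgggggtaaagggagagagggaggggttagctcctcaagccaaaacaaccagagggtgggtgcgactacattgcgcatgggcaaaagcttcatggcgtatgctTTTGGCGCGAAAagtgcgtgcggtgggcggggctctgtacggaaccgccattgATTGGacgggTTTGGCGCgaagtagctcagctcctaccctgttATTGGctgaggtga
Mcm7: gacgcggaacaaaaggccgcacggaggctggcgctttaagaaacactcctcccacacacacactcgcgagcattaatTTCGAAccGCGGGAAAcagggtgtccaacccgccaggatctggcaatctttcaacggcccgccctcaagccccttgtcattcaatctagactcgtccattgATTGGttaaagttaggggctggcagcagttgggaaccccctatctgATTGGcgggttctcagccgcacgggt
Pola1: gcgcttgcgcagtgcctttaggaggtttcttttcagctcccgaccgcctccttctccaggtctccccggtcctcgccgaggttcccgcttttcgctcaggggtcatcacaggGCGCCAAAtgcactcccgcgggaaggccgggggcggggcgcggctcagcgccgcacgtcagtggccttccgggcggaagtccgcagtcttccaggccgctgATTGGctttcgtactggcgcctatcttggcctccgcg
Gins3: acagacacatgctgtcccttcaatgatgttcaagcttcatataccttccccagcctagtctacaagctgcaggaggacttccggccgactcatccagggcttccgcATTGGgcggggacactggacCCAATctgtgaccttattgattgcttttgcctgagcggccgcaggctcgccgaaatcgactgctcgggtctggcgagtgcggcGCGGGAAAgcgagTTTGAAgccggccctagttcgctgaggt
Counted in bases before the start, the E2F element lay at 138 in *Cdc6* and at 138 in *Pola1*, where a CCAAT box followed at 37. In *Mcm5* overlapping E2F elements lay at 153 and 149, with CCAAT boxes at 77 and 22. In *Mcm6* overlapping E2F elements lay at 110 and 106 and another at 47, with CCAAT boxes at 57 and 14. In *Mcm7* the E2F element lay at 165 and a CHR element at 173, with CCAAT boxes at 72 and 26. In *Gins3* the E2F element lay at 41 and a CHR element at 28, with CCAAT boxes at 144 and 124.

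Licensing comprised *Orc1*, *Orc6*, *Cdc6*, *Cdt1*, and *Gmnn*, the last of which encodes geminin, the inhibitor of *Cdt1*. All 5 passed as higher in the 4 comparisons of Fibronectin and Geltrex™ with the control and Collagen I. Their median log2 fold change over Collagen I was 0.92 on Fibronectin and 1.07 on Geltrex™. *Cdc6* (ENSMUSG00000017499, chr11:98907801-98923940), which with the origin recognition complex loads the helicase, stood at 1.67, 2.46 and 1.19 CPM in the control, 0.563, 1.30 and 1.34 CPM on Collagen I, 5.09, 6.36 and 5.28 CPM on Fibronectin, and 6.79, 8.57 and 7.48 CPM on Geltrex™. Each Fibronectin and Geltrex™ sample lay above all 6 others, while the control and Collagen I overlapped. Its log2 fold change over Collagen I was 2.37 (adjusted p 6.32e-06, SE 0.27) on Fibronectin and 2.82 (adjusted p 8.61e-07, SE 0.27) on Geltrex™. Over the control it was 1.64 and 2.09, and both passed. A processed pseudogene, *Gm9430*, is 95.2% identical over 1528 bases, and it had no count.

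*Orc6* (ENSMUSG00000031697, chr8:85299632-85308278), which encodes a subunit of the origin recognition complex, had the highest mean CPM of the 5. It stood at 27.6, 23.1 and 27.4 CPM in the control, 25.0, 24.1 and 27.2 CPM on Collagen I, 29.7, 37.4 and 32.4 CPM on Fibronectin, and 36.3, 33.3 and 32.9 CPM on Geltrex™. All 6 samples on Fibronectin and Geltrex™ were higher than the 6 others, by a smaller margin than for *Cdc6*. Its log2 fold change over Collagen I was 0.38 (adjusted p 0.00661, SE 0.10) on Fibronectin and 0.43 (adjusted p 0.00409, SE 0.10) on Geltrex™. Over the control the Fibronectin value of *Orc6* was 0.35 (adjusted p 0.0158, SE 0.10). It missed the threshold without Control 2 (adjusted p 0.0662), without Fibronectin 2 (0.0797), and with only the 6 samples compared in the fit (0.0552), in a range of 0.00643 to 0.0797 over the alternatives. Both Geltrex™ values missed it with the 3 Geltrex™ samples summed into 1, at an adjusted p of 0.0999 over the control and 0.0694 over Collagen I, the highest over the alternatives. The log2 fold changes in that fit, 0.40 and 0.44, were no smaller than with 3 samples. On the opposite strand *Vps35* overlaps 6.93% of the *Orc6* exon length and had 129558 counts against 8742, and it too was higher over Collagen I, at 0.55 on Fibronectin and 0.37 on Geltrex™. Over the control *Vps35* passed on Fibronectin (0.44) and not on Geltrex™ (0.26, adjusted p 0.124), where *Orc6* passed, and its difference between the coatings did not pass (-0.18, adjusted p 0.318). As the strand rule of the counting is not given, reads of *Vps35* within the *Orc6* counts cannot be told apart.

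**Figure D3:**
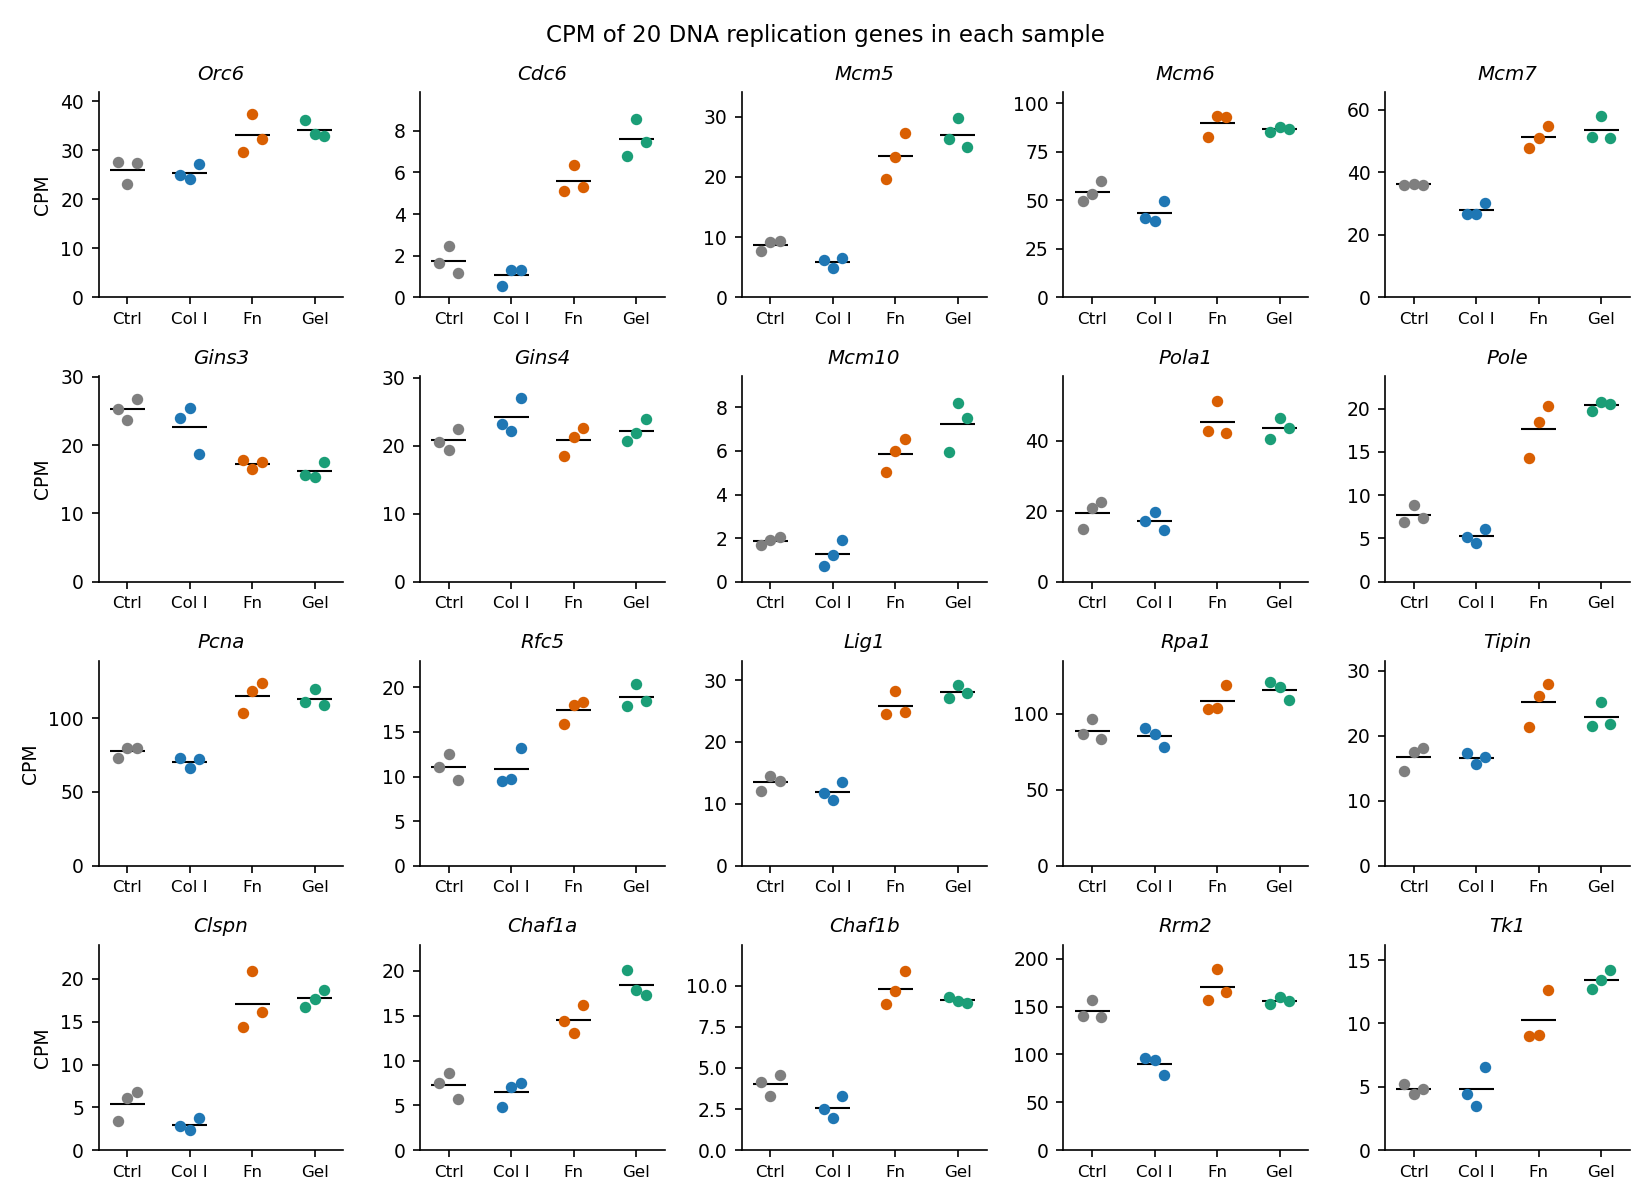
CPM of 20 of the replication genes in each sample (points) with the group mean (line), in the control (Ctrl), on Collagen I (Col I), on Fibronectin (Fn), and on Geltrex™ (Gel), on linear axes from 0. *Gins3* fell and *Gins4* did not pass, and the other 18 had higher means on Fibronectin and Geltrex™ than on Collagen I.

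The 6 subunits of the MCM helicase ring all passed as higher in the same 4 comparisons. Their median log2 fold change over Collagen I was 1.22 on Fibronectin and 1.18 on Geltrex™, and over the control it was 0.89 and 0.84. *Mcm5* (ENSMUSG00000005410, chr8:75109569-75128439) stood at 7.68, 9.17 and 9.38 CPM in the control, 6.15, 4.87 and 6.60 CPM on Collagen I, 19.7, 23.2 and 27.3 CPM on Fibronectin, and 26.4, 29.7 and 25.0 CPM on Geltrex™. The groups stood apart, with Collagen I below the control and the control below Fibronectin and Geltrex™, which overlapped each other. Over Collagen I its log2 fold change was 2.0 (adjusted p 5.37e-08, SE 0.15) on Fibronectin and 2.21 (adjusted p 2.01e-08, SE 0.15) on Geltrex™. Over the control *Mcm5* changed by 1.42 and 1.63, and both passed.

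*Mcm6* (ENSMUSG00000026355, chr1:128331590-128359664), the subunit with the highest mean CPM, stood at 49.6, 53.5 and 59.8 CPM in the control, 41.1, 39.3 and 49.5 CPM on Collagen I, 82.6, 93.4 and 92.7 CPM on Fibronectin, and 85.3, 87.5 and 86.7 CPM on Geltrex™. Fibronectin and Geltrex™ overlapped each other and lay above the control, and Collagen I ended just below its lowest sample. Over Collagen I the log2 fold change of *Mcm6* was 1.05 (adjusted p 6.76e-07, SE 0.096) on Fibronectin and 1.0 (adjusted p 9.9e-07, SE 0.096) on Geltrex™. *Mcm7* (ENSMUSG00000029730, chr5:138164583-138172422) stood at 36.1, 36.3 and 36.0 CPM in the control, 26.8, 26.8 and 30.2 CPM on Collagen I, 47.6, 51.0 and 54.8 CPM on Fibronectin, and 51.3, 58.2 and 51.1 CPM on Geltrex™. Its 3 control samples were nearly equal, all Collagen I samples lay below them, and all Fibronectin and Geltrex™ samples lay above them. The log2 fold change of *Mcm7* over Collagen I was 0.87 on Fibronectin and 0.94 on Geltrex™, at adjusted p-values of 1.19e-06 and 5.08e-07. A processed pseudogene of *Mcm7*, *Gm5487*, had 23 counts in all against 12444 for *Mcm7*. *Mcm2*, *Mcm3*, and *Mcm4* passed with log2 fold changes over Collagen I between 1.16 and 1.46.

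Helicase activation took in the kinase pair *Cdc7* and *Dbf4*, *Cdc45*, the 4 GINS subunits, and *Mcm10*. Of these 8, 5 passed as higher on Fibronectin and 6 on Geltrex™, over the control and over Collagen I alike, and 1 passed as lower. *Mcm10* (ENSMUSG00000026669, chr2:4989714-5012791), whose protein helps to start unwinding, stood at 1.67, 1.91 and 2.04 CPM in the control, 0.737, 1.23 and 1.90 CPM on Collagen I, 5.05, 5.99 and 6.56 CPM on Fibronectin, and 5.94, 8.20 and 7.53 CPM on Geltrex™. Every Fibronectin and Geltrex™ sample lay above 5 CPM and every other sample at or near 2 CPM or less. The log2 fold change of *Mcm10* over Collagen I was 2.18 (adjusted p 4.77e-06, SE 0.24) on Fibronectin and 2.49 (adjusted p 1.07e-06, SE 0.24) on Geltrex™. Among the rest, *Cdc7*, *Dbf4*, *Gins1*, and *Gins2* passed in all 4 comparisons, at 0.79 to 1.34 over Collagen I.

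*Gins3* was the member that passed in the opposite direction. *Gins3* (ENSMUSG00000031669, chr8:95633453-95645060) encodes a subunit of GINS, the complex that joins the helicase when it is activated. It stood at 25.4, 23.7 and 26.8 CPM in the control, 24.0, 25.5 and 18.8 CPM on Collagen I, 17.9, 16.5 and 17.5 CPM on Fibronectin, and 15.7, 15.4 and 17.5 CPM on Geltrex™. All 6 samples on Fibronectin and Geltrex™ lay below all 6 others, although Collagen I 3, at 18.8 CPM, came close to Fibronectin 1. Over the control its log2 fold change was -0.55 (adjusted p 0.00146, SE 0.11) on Fibronectin and -0.65 (adjusted p 0.000322, SE 0.11) on Geltrex™. Over Collagen I it was -0.40 (adjusted p 0.00902, SE 0.11) and -0.49 (adjusted p 0.00282, SE 0.11). With the Geltrex™ samples summed into 1, the last missed the threshold at a log2 fold change of -0.48 (adjusted p 0.0757, in a range of 0.000173 to 0.0757 over the alternatives).

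*Gins4* (ENSMUSG00000031546, chr8:23226616-23237659), another subunit of the same complex, stood at 20.5, 19.3 and 22.5 CPM in the control, 23.2, 22.2 and 27.0 CPM on Collagen I, 18.5, 21.4 and 22.6 CPM on Fibronectin, and 20.6, 21.8 and 23.9 CPM on Geltrex™. All 4 groups overlapped, with the highest sample on Collagen I. It passed in no comparison: its log2 fold change over Collagen I was -0.21 (adjusted p 0.114, SE 0.11) on Fibronectin and -0.13 (adjusted p 0.372, SE 0.11) on Geltrex™. Per kilobase of exon, *Gins3* and *Gins4* had mean levels of 7.52 and 16.3 CPM per kb over the 12 samples, while *Gins1* and *Gins2* had 1.69 and 0.949 CPM per kb. So the subunits with the higher levels per length fell or did not pass, and those with the lower levels per length passed as higher. For *Gins2*, 67.3% of its exon length lies over *Gse1* on the opposite strand, which had 6407 counts in all against 1139. *Gse1* also passed as higher on Fibronectin and on Geltrex™ over Collagen I, at log2 fold changes of 0.51 and 0.98, and on Geltrex™ over the control, at 0.71. On Fibronectin over the control *Gse1* did not pass (0.24, adjusted p 0.0805), where *Gins2* did (0.83), and between the coatings *Gse1* differed by 0.47 (adjusted p 0.00369). Reads of *Gse1* within the *Gins2* counts cannot be told apart. Reads left uncounted where these genes overlap would lower the *Gins2* level per length, and how they were counted is not given.

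The polymerase group held *Pola1*, *Pola2*, *Prim1*, and *Prim2* of the polymerase alpha and primase complex, *Pole* and *Pole2* of polymerase epsilon, and *Pold1*, *Pold2*, and *Pold3* of polymerase delta. Over the control 5 of the 9 passed as higher on Fibronectin and 7 on Geltrex™, and over Collagen I 4 and 7. *Pola1* (ENSMUSG00000006678, chrX:93304767-93632155), the catalytic subunit of polymerase alpha, which extends primers, stood at 15.03, 20.9 and 22.7 CPM in the control, 17.2, 19.7 and 14.6 CPM on Collagen I, 42.9, 51.2 and 42.1 CPM on Fibronectin, and 40.5, 46.4 and 43.7 CPM on Geltrex™. Fibronectin and Geltrex™ samples were all higher than the 6 others, and the control and Collagen I overlapped. Over Collagen I its log2 fold change was 1.40 (adjusted p 1.73e-06, SE 0.14) on Fibronectin and 1.34 (adjusted p 2.49e-06, SE 0.14) on Geltrex™, and over the control it was 1.21 and 1.15.

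*Pole* (ENSMUSG00000007080, chr5:110286306-110337474), which encodes the catalytic subunit of the leading strand polymerase, stood at 6.84, 8.84 and 7.30 CPM in the control, 5.16, 4.42 and 6.08 CPM on Collagen I, 14.3, 18.5 and 20.3 CPM on Fibronectin, and 19.8, 20.8 and 20.6 CPM on Geltrex™. Collagen I lay lowest, the control above it, and Fibronectin and Geltrex™ above both with Fibronectin 1 well under the 3 Geltrex™ samples. Against Collagen I, *Pole* changed by 1.76 (adjusted p 3.16e-07, SE 0.15) on Fibronectin and 1.97 (adjusted p 9.56e-08, SE 0.15) on Geltrex™. Not every polymerase subunit passed in all 4 comparisons. *Pole2* had log2 fold changes over Collagen I of 0.42 on Fibronectin, which did not pass, and 0.49 on Geltrex™, which did. In polymerase delta, which extends the lagging strand, *Pold1* passed only on Geltrex™, at 0.73 over the control and 0.70 over Collagen I. *Pold2* and *Pold3* did not pass in any comparison, with log2 fold changes over Collagen I between -0.036 and 0.19. On Geltrex™ against Fibronectin neither *Pold1*, at 0.48 (adjusted p 0.103, SE 0.20), nor *Pole2*, at 0.069 (adjusted p 0.816, SE 0.17), passed.

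The clamp *Pcna*, which holds polymerases on DNA, and the 5 subunits of its loader had lower medians over Collagen I than the 50 genes together. Of these 6, 4 passed as higher on Fibronectin and 3 on Geltrex™ over the control, and 3 on each over Collagen I. The median log2 fold change over Collagen I was 0.35 on Fibronectin and 0.39 on Geltrex™. *Pcna* (ENSMUSG00000027342, chr2:132249162-132253314) stood at 73.0, 80.0 and 79.7 CPM in the control, 72.8, 66.2 and 72.5 CPM on Collagen I, 104, 119 and 123 CPM on Fibronectin, and 111, 119 and 109 CPM on Geltrex™. All Fibronectin and Geltrex™ samples exceeded the 6 others, and the control lay above Collagen I with almost no gap. On the log2 scale *Pcna* rose over Collagen I by 0.71 (adjusted p 7.8e-06, SE 0.083) on Fibronectin and 0.68 (adjusted p 1.18e-05, SE 0.083) on Geltrex™. The pseudogene *Pcna-ps2* is 99.2% identical over 781 bases and had 2511 counts against 27735 for *Pcna*, and how reads with more than 1 match were assigned is not given.

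*Rfc5* (ENSMUSG00000029363, chr5:117378103-117389047), a small subunit of the clamp loader, stood at 11.1, 12.5 and 9.60 CPM in the control, 9.45, 9.77 and 13.2 CPM on Collagen I, 15.9, 18.0 and 18.3 CPM on Fibronectin, and 17.9, 20.4 and 18.5 CPM on Geltrex™. Collagen I 3 lay above the control and the other Collagen I samples, and still below all samples on Fibronectin and Geltrex™. Over Collagen I its log2 fold change was 0.69 (adjusted p 0.000804, SE 0.13) on Fibronectin and 0.81 (adjusted p 0.000236, SE 0.13) on Geltrex™. Exons of *Wsb2* on the opposite strand cover 10.7% of its length, and *Wsb2* passed in none of the 4 comparisons. The large subunit *Rfc1* passed on Fibronectin alone, at 0.33 over the control and 0.33 over Collagen I, and between Geltrex™ and Fibronectin it did not pass, at -0.15 (adjusted p 0.169, SE 0.075). *Rfc3* passed only on Geltrex™ over Collagen I (0.34), *Rfc4* only over the control (0.49 and 0.57), and *Rfc2* in no comparison. Neither *Rfc3* on Geltrex™ against Fibronectin, at 0.14 (adjusted p 0.406, SE 0.12), nor *Rfc4* on Collagen I against the control, at 0.13 (adjusted p 0.761, SE 0.17), passed.

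Lagging strand maturation was represented by the flap nuclease *Fen1* and the ligase *Lig1*. Both passed as higher in all 4 comparisons. *Lig1* (ENSMUSG00000056394, chr7:13277283-13311433), which seals Okazaki fragments, stood at 12.1, 14.6 and 13.7 CPM in the control, 11.8, 10.7 and 13.5 CPM on Collagen I, 24.4, 28.3 and 24.9 CPM on Fibronectin, and 27.0, 29.2 and 28.0 CPM on Geltrex™. Fibronectin and Geltrex™ overlapped each other and lay far above the control and Collagen I, which also overlapped. Its log2 fold change over Collagen I was 1.11 (adjusted p 1.11e-06, SE 0.11) on Fibronectin and 1.23 (adjusted p 3.52e-07, SE 0.11) on Geltrex™. *Fen1* had 158 counts in all 12 samples together, the fewest of the 50 genes, and log2 fold changes of 0.97 and 1.14 with standard errors of 0.34 and 0.34. Over 78.8% of its exon length *Fen1* overlaps *Gm10143* on the opposite strand, which had 19 counts. How reads over both genes were counted is not given, and the part of this overlap in the low count of *Fen1* was not tested.

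Single-strand binding by replication protein A (RPA) had the smallest median log2 fold changes of the 10 roles over Collagen I, at -0.089 on Fibronectin and 0.15 on Geltrex™. Of *Rpa1*, *Rpa2*, and *Rpa3*, only *Rpa1* passed, in all 4 comparisons. *Rpa1* (ENSMUSG00000000751, chr11:75298166-75348324), the large subunit, stood at 86.3, 96.3 and 83.4 CPM in the control, 90.7, 86.7 and 78.3 CPM on Collagen I, 103, 104 and 119 CPM on Fibronectin, and 120.5, 117 and 109 CPM on Geltrex™. The lowest Fibronectin sample was above the highest control sample, and Geltrex™ lay higher still or within the Fibronectin range. *Rpa1* changed by 0.35 (adjusted p 0.00454, SE 0.087) on Fibronectin and 0.44 (adjusted p 0.00107, SE 0.087) on Geltrex™ over Collagen I. Over the control the Fibronectin value, 0.29 (adjusted p 0.0184, SE 0.087), missed the threshold without Control 1 (adjusted p 0.064), Control 3 (0.0703), or Fibronectin 3 (0.0684). It also missed it with only the samples compared in the fit (0.0563), in a range of 0.00569 to 0.0703. Over the control, *Rpa1* on Geltrex™ passed at 0.38 and missed the threshold with those samples summed into 1, at 0.39 (adjusted p 0.0778, in a range of 0.000183 to 0.0778). For *Rpa2* and *Rpa3* the log2 fold changes over Collagen I lay between -0.18 and 0.15, and none passed.

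Fork protection comprised *Timeless*, *Tipin*, *Clspn*, and *Wdhd1*, and all 4 passed as higher in all 4 comparisons. *Clspn* (ENSMUSG00000042489, chr4:126556935-126593903) encodes claspin, which travels with the fork and relays its stalling to the checkpoint kinase. It stood at 3.38, 6.09 and 6.84 CPM in the control, 2.77, 2.30 and 3.75 CPM on Collagen I, 14.4, 20.9 and 16.1 CPM on Fibronectin, and 16.8, 17.7 and 18.8 CPM on Geltrex™. Every sample on Fibronectin and Geltrex™ was more than any of the other 6, and the control and Collagen I overlapped. The log2 fold change over Collagen I was 2.55 (adjusted p 5.04e-07, SE 0.23) on Fibronectin and 2.60 (adjusted p 3.7e-07, SE 0.23) on Geltrex™. *Tipin* (ENSMUSG00000032397, chr9:64281581-64305424), the partner of *Timeless*, stood at 14.6, 17.5 and 18.1 CPM in the control, 17.3, 15.7 and 16.7 CPM on Collagen I, 21.4, 26.2 and 28.0 CPM on Fibronectin, and 21.5, 25.3 and 21.9 CPM on Geltrex™. The groups on Fibronectin and Geltrex™ lay above the 6 others with a narrower gap than for *Clspn*. Over Collagen I the log2 fold change of *Tipin* was 0.60 (adjusted p 0.000724, SE 0.12) on Fibronectin and 0.47 (adjusted p 0.00564, SE 0.12) on Geltrex™. Its Geltrex™ values missed the threshold with those samples summed into 1, at an adjusted p of 0.0873 over the control (range 0.0013 to 0.0873) and 0.0716 over Collagen I (range 0.00077 to 0.0716), while the log2 fold changes were 0.46 and 0.48. *Timeless* and *Wdhd1* changed by 0.84 and 1.60 on Fibronectin and by 1.12 and 1.34 on Geltrex™ over Collagen I.

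Chromatin assembly on new DNA was represented by *Chaf1a* and *Chaf1b*, subunits of the histone chaperone CAF-1. Both passed as higher in all 4 comparisons. *Chaf1b* (ENSMUSG00000022945, chr16:93883901-93906115) stood at 4.18, 3.30 and 4.54 CPM in the control, 2.51, 1.93 and 3.28 CPM on Collagen I, 8.88, 9.67 and 10.9 CPM on Fibronectin, and 9.31, 9.10 and 8.93 CPM on Geltrex™. Collagen I lay below the control, by a narrow gap, and Fibronectin and Geltrex™ above it. Its log2 fold change over Collagen I was 1.94 (adjusted p 5.83e-07, SE 0.18) on Fibronectin and 1.83 (adjusted p 9.97e-07, SE 0.18) on Geltrex™. *Chaf1a* (ENSMUSG00000002835, chr17:56040439-56072289) stood at 7.48, 8.58 and 5.69 CPM in the control, 4.77, 7.02 and 7.55 CPM on Collagen I, 14.4, 13.0 and 16.2 CPM on Fibronectin, and 20.1, 17.9 and 17.3 CPM on Geltrex™. The control and Collagen I overlapped, and all Geltrex™ samples lay above the Fibronectin samples. Over Collagen I *Chaf1a* changed by 1.17 (adjusted p 5.81e-05, SE 0.17) on Fibronectin and 1.51 (adjusted p 4.2e-06, SE 0.17) on Geltrex™. On the opposite strand *Ubxn6* covers 52.5% of the *Chaf1a* exon length and had 3767 counts against 3434. *Ubxn6* was lower on Geltrex™ over Collagen I, at a log2 fold change of -0.42, the opposite direction to *Chaf1a*, and did not pass in the other 3 of these comparisons.

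Nucleotide supply held *Rrm1* and *Rrm2* of ribonucleotide reductase, the thymidine kinase *Tk1*, the thymidylate synthase *Tyms*, and the dUTPase *Dut*. All 5 passed as higher over Collagen I on both coatings, and all but *Rrm2* did so over the control. *Rrm2* (ENSMUSG00000020649, chr12:24708241-24714146), the small subunit that sets the enzyme's activity in S phase, had the highest mean CPM of the 50 genes. It stood at 140.0, 157 and 139.5 CPM in the control, 96.2, 94.3 and 78.6 CPM on Collagen I, 157, 189.6 and 166 CPM on Fibronectin, and 153, 160.5 and 156 CPM on Geltrex™. Here the Collagen I samples stood apart below all 9 others, and the control overlapped Fibronectin and Geltrex™. Over Collagen I its log2 fold change was 0.93 (adjusted p 1.78e-06, SE 0.094) on Fibronectin and 0.80 (adjusted p 7.62e-06, SE 0.094) on Geltrex™. Over the control it was 0.23 (adjusted p 0.0695, SE 0.093) and 0.10 (adjusted p 0.428, SE 0.093), and neither passed. The Fibronectin value of *Rrm2* over the control passed without Control 2 (adjusted p 0.0424), without Collagen I 3 (0.0436) and with a replicate block (0.0477), in a range of 0.0424 to 0.276 over the alternatives.

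*Tk1* (ENSMUSG00000025574, chr11:117815526-117826092), which phosphorylates thymidine taken up by the cell, stood at 5.21, 4.44 and 4.80 CPM in the control, 4.46, 3.49 and 6.56 CPM on Collagen I, 8.99, 9.13 and 12.7 CPM on Fibronectin, and 12.7, 13.4 and 14.2 CPM on Geltrex™. The control and Collagen I overlapped, the Fibronectin samples lay above both, and the lowest Geltrex™ sample was just above the highest Fibronectin sample, though the test between these coatings did not pass, at 0.39 (adjusted p 0.139, SE 0.18). *Tk1* changed over Collagen I by 1.09 (adjusted p 0.000343, SE 0.19) on Fibronectin and 1.48 (adjusted p 2.02e-05, SE 0.19) on Geltrex™. *Rrm1*, *Tyms*, and *Dut* passed in all 4 comparisons, at 0.53 to 1.14 over Collagen I. Near-identical processed pseudogenes of *Rrm2* and *Tyms* had 2 counts each.

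Collagen I against the control asks whether this coating alone moves the replication genes. By edgeR 0 members passed as higher and 2 as lower, where 0.2% and 0.917% of all genes tested passed. At an unadjusted p below 0.05 there were 0 higher and 13 lower members, beside 6.46% and 8.32% of all genes. DESeq2 called 0 higher and 10 lower, beside 0.855% and 2.49% of all genes. Lower members thus made up a larger share than among all genes by either tool, and their number differed between the tools. With no filter on low counts edgeR called 0 higher and 9 lower, beside 0.689% and 1.29%. The median log2 fold change was -0.13 beside -0.0031 over all genes tested. It was -0.21 without Collagen I 3 and -0.072 without Collagen I 2. The median thus stayed below 0 with either sample left out. The count of lower members was 5 without Collagen I 3, 4 without Control 1, and 3 without Fibronectin 2 or Fibronectin 3. It was 1 without Control 2, Control 3, Collagen I 1, Collagen I 2, Fibronectin 1, Geltrex™ 1, Geltrex™ 2, or Geltrex™ 3. Of all genes tested, between 0.236% and 1.23% passed as lower in the fits without 1 sample.

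The 2 members that passed as lower on Collagen I were *Rrm2* and *Mcm7*. *Rrm2* had a log2 fold change of -0.70 (adjusted p 0.00204, SE 0.094) and lay below the control in all 3 samples, with an adjusted p of at most 0.0346 over the alternatives. For *Mcm7* it was -0.37 (adjusted p 0.048, SE 0.085), also with all 3 samples below the control. The adjusted p of *Mcm7* was 0.0798, 0.159, and 0.113 without Control 1, 2, or 3 and 0.15 and 0.143 without Collagen I 1 or 2. It was 0.0594 without Fibronectin 1, 0.0836, 0.068, and 0.0789 without Geltrex™ 1, 2, or 3, and 0.174 with only the 6 samples compared in the fit. With a replicate block it was 0.0531, and *Rrm1* passed in its place. So a block or leaving out any of 9 of the 12 samples took away the pass of *Mcm7*. The range over all alternatives was 0.00496 to 0.174.

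In the MCM ring the median log2 fold change on Collagen I over the control was -0.35. *Mcm3*, *Mcm4*, *Mcm5*, *Mcm6*, and *Mcm7* each lay below the control in all 3 Collagen I samples, and *Mcm2* overlapped it. Besides *Mcm7*, none passed by edgeR in the main fit. *Mcm5* had -0.58 (adjusted p 0.0727, SE 0.15) and *Mcm6* had -0.33 (adjusted p 0.112, SE 0.096), the latter with an adjusted p of 0.03 without Collagen I 3 in a range of 0.03 to 0.338. These subunits lay near the threshold. *Clspn* had a log2 fold change of -0.89 (adjusted p 0.0866, SE 0.24), with overlap between the groups, and an adjusted p of 0.0148 without Control 1 in a range of 2.69e-05 to 0.291. For *Chaf1b* it was -0.64 (adjusted p 0.108, SE 0.19), and 0.0423 was the adjusted p without Collagen I 3, in a range of 0.0332 to 0.342. *Pole* stood at -0.56 (adjusted p 0.0956, SE 0.16). None of these 5 genes passed in the main fit, and each passed in some alternative. With no filter on low counts edgeR gave adjusted p-values of 0.00432, 2.69e-05, 0.0332, and 0.0128 for *Mcm5*, *Clspn*, *Chaf1b*, and *Pole*. By DESeq2, *Mcm5*, *Mcm6*, *Clspn*, *Chaf1b*, and *Pole* passed as lower, with adjusted p-values between 0.00987 and 0.0486. Adjusted p-values for *Mcm5* and *Pole* ranged over 0.00432 to 0.248 and 0.0128 to 0.354 across the alternatives. Every lower call besides that of *Rrm2* thus depended on the fit. Other members that passed as lower by DESeq2 and by edgeR with no filter were *Rrm1*, *Mcm4*, and *Wdhd1*, with adjusted p-values of 0.0541, 0.091, and 0.0975 in the main fit. *Rrm1* also passed under the stricter filter of 10 counts per sample, with a replicate block, and without Control 1, Fibronectin 2, or Fibronectin 3, and *Mcm4* without Control 1. *Mcm2* passed as lower without Collagen I 3 alone.

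Geltrex™ against Fibronectin asks whether the coatings with higher levels differ from each other. By edgeR 3 members passed as higher and 0 as lower, and 9.06% and 10.3% of all genes tested did so. At an unadjusted p below 0.05 there were 10 higher members and 1 lower, beside 16.1% and 16.9% of all genes. DESeq2 called 3 higher and 0 lower, beside 10.2% and 11.3% of all genes. At an unadjusted p below 0.05 it gave 10 higher and 0 lower, beside 16.0% and 16.9% of all genes. By either tool the share of members that passed at the adjusted threshold was below that of all genes, in both directions. At the unadjusted threshold the share of higher members was above that of all genes, and the share of lower members was below it. The median log2 fold change was 0.089 beside 0.0049 over all genes tested. It was 0.018 without Fibronectin 1 and 0.17 without Fibronectin 3. The count of higher members was 0 without Fibronectin 1, Geltrex™ 2, or Geltrex™ 3, 1 without Fibronectin 2 or Geltrex™ 1, and 9 without Fibronectin 3. Of all genes tested, between 5.60% and 11.2% passed as higher in the fits without 1 sample, and 10.8% without Fibronectin 3. The count of members thus turned on single samples. With the Geltrex™ samples summed into 1, 0 members passed as higher by edgeR (2 at an unadjusted p below 0.05), beside 2.28% of all genes, so all 3 passes were lost. The 3 genes, named after their values were seen, were *Cdt1*, *Cdc45*, and *Pola2*, with log2 fold changes of 0.59 (adjusted p 0.0223, SE 0.17), 0.38 (adjusted p 0.0429, SE 0.12), and 0.32 (adjusted p 0.033, SE 0.099). *Cdt1* overlapped between the groups, and *Cdc45* and *Pola2* did not. *Tk1* passed without Fibronectin 3 alone (adjusted p 0.036, in a range of 0.036 to 0.505), and *Cdc6* and *Chaf1a* passed with only the 6 samples compared in the fit (0.0372 and 0.0349, in ranges of 0.0372 to 0.535 and 0.0349 to 0.513).

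Levels of different genes were compared per kilobase of exon, in CPM per kb, as the mean over the 12 samples. The divisor was the full exon length, also where another gene overlaps it, as over 78.8% of *Fen1*, 67.3% of *Gins2*, and 52.5% of *Chaf1a*. Reads left uncounted there would lower these levels, and the rule for such reads is not given. The highest was *Rrm2* at 50.7 CPM per kb, then *Pcna* at 39.2, *Rpa1* at 17.8, *Gins4* at 16.3, and *Rpa3* at 15.8 CPM per kb. Below *Rrm2* and *Pcna* the order differed by group. On Collagen I *Gins4* (17.9) and *Rpa3* (16.4) stood above *Rpa1* (15.3 CPM per kb). *Mcm6* stood above *Gins4* and *Rpa3* on Fibronectin (19.2) and on Geltrex™ (18.5 CPM per kb), and *Mcm4* (17.0) and *Rfc1* (16.0 CPM per kb) did so on Fibronectin. *Fen1* was lowest in every group. The lowest means over the 12 samples were *Fen1* at 0.221, *Mcm10* at 0.528, *Orc1* at 0.593, and *Cdc6* at 0.766 CPM per kb, and the order of the last 3 differed by group. The median of the 50 was 3.51 CPM per kb. Subunits of 1 complex did not stand at 1 level per length. The MCM subunits from *Mcm2* to *Mcm7* stood at 4.49, 7.87, 12.2, 4.07, 14.7, and 9.53 CPM per kb. In the clamp loader *Rfc1* stood at 14.0 CPM per kb, and *Rfc2*, *Rfc3*, *Rfc4*, and *Rfc5* stood between 2.86 and 3.55 CPM per kb.

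By group the level of *Mcm5* was 2.19, 1.47, 5.87 and 6.77 CPM per kb in the control, on Collagen I, on Fibronectin, and on Geltrex™, and that of *Mcm6* was 11.6, 9.28, 19.2 and 18.5 CPM per kb. *Mcm5* stood at a smaller part of the *Mcm6* level in the control and on Collagen I than on Fibronectin or Geltrex™. In the same order *Clspn* stood at 0.756, 0.410, 2.38 and 2.47 CPM per kb and *Tipin*, of the same role, at 8.96, 8.87, 13.5 and 12.2 CPM per kb.

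**Figure D4:**
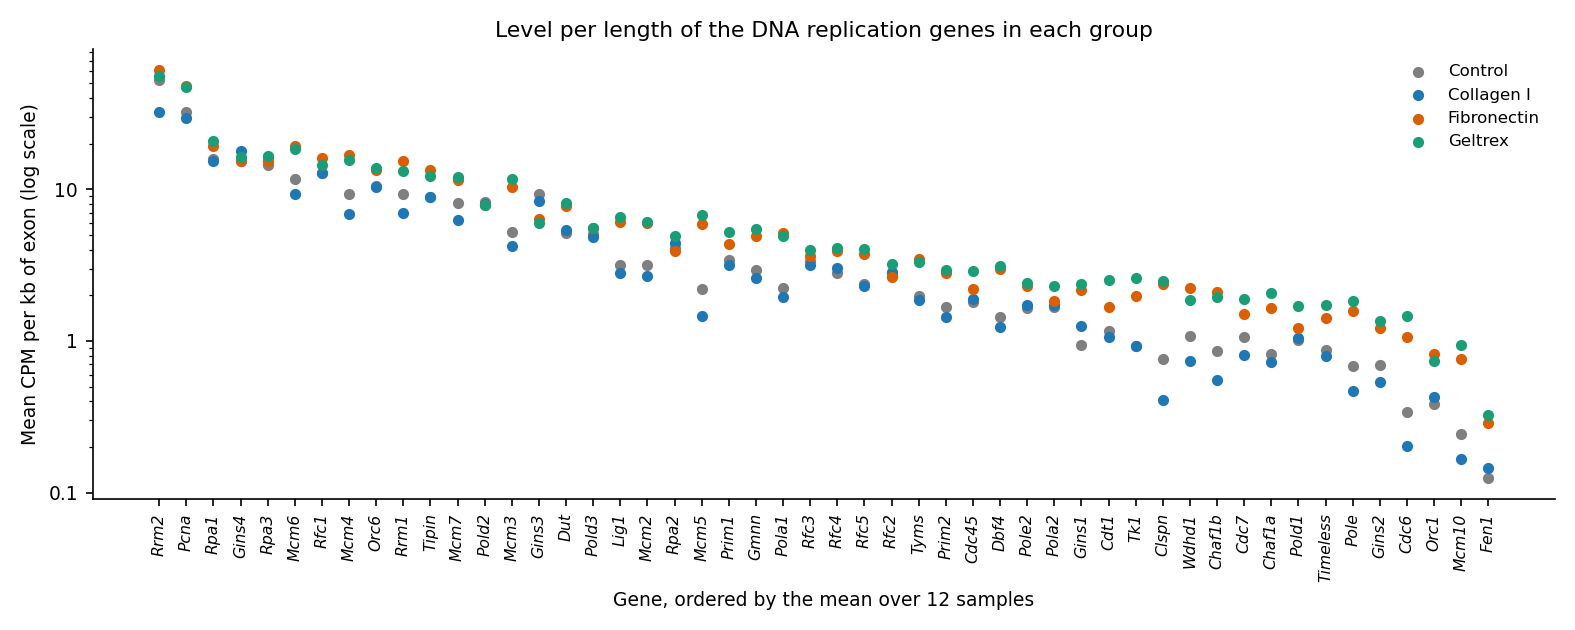
Mean CPM per kb of exon (log axis) of the 50 genes in the control, on Collagen I, on Fibronectin, and on Geltrex™, ordered by the mean over the 12 samples. *Rrm2* and *Pcna* lie highest and *Fen1* lowest, and the 4 points of *Gins4*, *Rpa3*, and *Pold2* lie close together.

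Another 45 replication genes outside the 50 were taken from textbook membership, and 44 of them had enough counts to be tested. Over Collagen I, 28 passed as higher and 5 as lower on Fibronectin and 26 and 2 on Geltrex™, with medians of 0.43 and 0.44. Over the control the numbers were 20 and 1 on Fibronectin and 20 and 2 on Geltrex™. Of all genes tested, 22.9% and 22.1% did so over Collagen I on Fibronectin, and 19% and 18.2% on Geltrex™. Over the control these shares were 17.1% and 14.7%, and 16.4% and 16.6%. The 4 with the highest mean CPM differed. *Top2a*, the topoisomerase of dividing cells, had log2 fold changes over Collagen I of 2.09 (adjusted p 1.95e-09, SE 0.11) on Fibronectin and 2.03 (adjusted p 1.77e-09, SE 0.10) on Geltrex™. *Top1*, which relieves supercoils ahead of forks and of transcription, was lower at -0.46 (adjusted p 0.00082, SE 0.090) and -0.42 (adjusted p 0.00207, SE 0.090). Of the histone chaperone FACT, *Supt16* passed at 0.59 and 0.36, and *Ssrp1* did not pass at 0.071 and 0.056.

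Among 20 E2F factors and regulators of S phase entry, 11 passed as higher and 3 as lower on Fibronectin and 9 and 1 on Geltrex™ over Collagen I. Over the control they were 10 and 3, and 8 and 3. The shares over Collagen I were 55% and 15% on Fibronectin and 45% and 5% on Geltrex™. Those of all genes tested were 22.9% and 22.1%, and 19% and 18.2%. *Cdk6*, *Cdk4*, *Ccnd3*, and *Ccnd2* had the highest mean CPM in this list. *Cdk6* had log2 fold changes over Collagen I of 0.98 and 0.84 and *Ccnd2* had 1.17 and 0.89, and all 4 passed. *Ccnd3* was lower on Fibronectin at -0.61 (adjusted p 0.000827, SE 0.12) and did not pass on Geltrex™ (-0.19), and the difference between these coatings passed at 0.42 (adjusted p 0.0228, SE 0.12). *Cdk4* passed on neither. Of 10 CDK inhibitors and pocket proteins, 8 were tested, and *Cdkn2a* and *Cdkn2b* had no count. Over Collagen I, 2 passed as higher and 1 as lower on Fibronectin and 1 and 2 on Geltrex™, and over the control 3 and 1, and 2 and 2. Of the 8 tested, those over Collagen I were 25% and 12.5% on Fibronectin and 12.5% and 25% on Geltrex™. Again 22.9% and 22.1%, and 19% and 18.2%, of all genes tested did so. *Cdkn1a*, which encodes the inhibitor p21, had the highest mean CPM of these and was lower over Collagen I, at -1.02 (adjusted p 3.76e-07, SE 0.089) and -0.73 (adjusted p 1.15e-05, SE 0.089). *Cdkn1b* was lower on Geltrex™ at -0.66 (adjusted p 7.91e-06, SE 0.077) and did not pass on Fibronectin, with -0.78 (adjusted p 3.4e-06, SE 0.077) between the coatings. *Rb1* and *Rbl2* did not pass in any of these comparisons.

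All 32 mitosis genes passed as higher on Fibronectin and on Geltrex™ over the control and over Collagen I. Their medians over Collagen I were 1.86 and 1.73, above the 0.88 and 0.93 of the 50 replication genes. Summed over the 32 genes the level was 567, 635 and 710.3 CPM in the control, 518, 532 and 554 CPM on Collagen I, 1543, 2076 and 1603 CPM on Fibronectin, and 1545, 1629.5 and 1624 CPM on Geltrex™. Fibronectin 2 was the highest, and every sample on Fibronectin and Geltrex™ exceeded the 6 others. *Smc4*, *Mki67*, *Anln*, and *Smc2* had the highest mean CPM, and *Mki67*, the gene of the proliferation marker Ki-67, had log2 fold changes over Collagen I of 2.25 (adjusted p 5.07e-08, SE 0.16) and 2.33 (adjusted p 3.32e-08, SE 0.16).

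**Figure D5:**
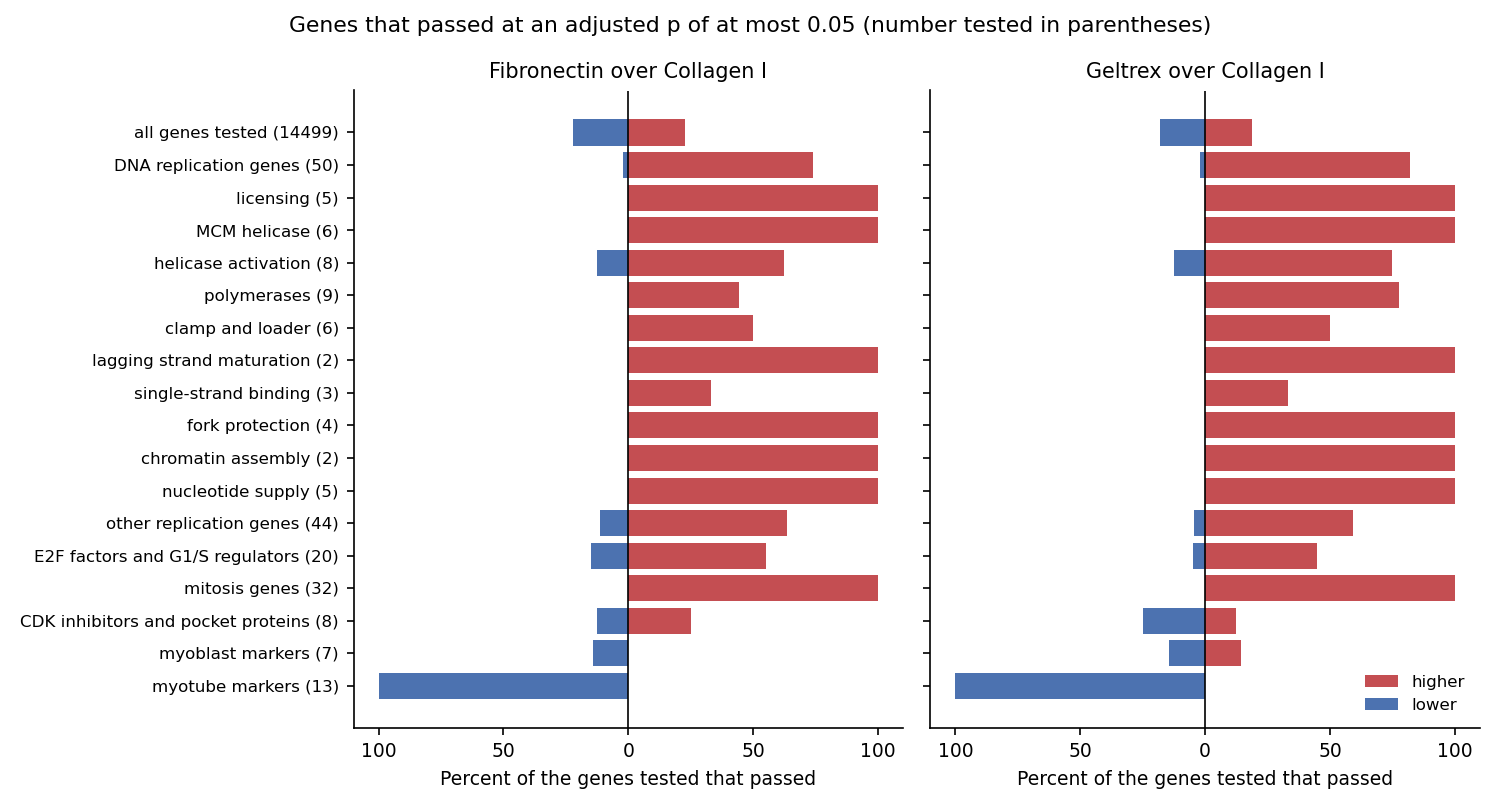
Percent of the genes tested that passed as higher (red) or lower (blue) on Fibronectin (left) and Geltrex™ (right) over Collagen I, for all genes, the 50 replication genes and their roles, and other lists, with the number tested in parentheses. The replication genes passed as higher in 74% and 82%, beside 22.9% and 19% of all genes.

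Markers of muscle cells moved with these results. Of 15 myotube markers, 13 were tested, with *Myf6* and *Tnnc2* below the filter, and all 13 passed as lower on Fibronectin and on Geltrex™ over the control and over Collagen I. Their medians were -1.97 and -1.29 over Collagen I and -1.93 and -1.43 over the control. The summed level of the 15 markers was 11304, 11562 and 10369 CPM in the control, 11876, 11296 and 10737 CPM on Collagen I, 3384, 2949 and 3015 CPM on Fibronectin, and 4599, 4325 and 4783 CPM on Geltrex™. *Mylpf*, which encodes a light chain of myosin, had the highest mean CPM. Every Fibronectin sample lay below every Geltrex™ sample, and both below the 6 others. The replication sums did not keep that order, since Fibronectin and Geltrex™ overlapped in them. The part of these markers in the changes of the replication genes was not tested.

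All 7 myoblast markers were tested, and none was at 0. Their summed level was 1032, 1044 and 983 CPM in the control, 942, 884 and 907 CPM on Collagen I, 798, 766 and 794 CPM on Fibronectin, and 793, 801 and 806 CPM on Geltrex™, with *Ncam1* the highest. The sums on Fibronectin and Geltrex™ lay below the 6 others, which rested on *Ncam1*. Without it the sums were 439 to 485 CPM in the control, 411 to 472 CPM on Collagen I, 375 to 426 CPM on Fibronectin, and 454 to 472 CPM on Geltrex™, and those on Fibronectin and Geltrex™ were no longer all below the 6 others. Over the control 2 passed as lower on each of both coatings, and over Collagen I 1 passed as lower on Fibronectin and 1 in each direction on Geltrex™. The 2 over the control were 28.6% of the 7, beside 14.7% and 16.6% of all genes tested on Fibronectin and Geltrex™. Of 9 fibroblast markers, 8 were tested, *Thy1* had no count, *Col3a1* was highest, and the sums lay between 7138 and 8580.2 CPM with all 4 groups overlapping. Over Collagen I 3 of these passed in each direction on Fibronectin, and 4 as higher and 3 as lower on Geltrex™. Of the 8 tested, these were 37.5% in each direction on Fibronectin, and 50% and 37.5% on Geltrex™. All genes tested gave 22.9% higher and 22.1% lower on Fibronectin over Collagen I, and 19% and 18.2% on Geltrex™. Macrophage markers were near 0: 2 of 8 were tested, *Adgre1* had no count, *Cd68* was highest, and the sums lay between 1.37 and 2.55 CPM. Of 6 endothelial markers only *Tek* was tested, and the sums lay between 0.897 and 3.53 CPM. None of the last 3 lists had its Fibronectin and Geltrex™ sums together above or below the 6 others. The part of the myoblast markers in the changes of the replication genes was not tested.

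Several of the 50 genes share sequence with other genes. By exon overlap, 15 had a gene on the opposite strand, and in 7 it covered at least 10% of the exon length: *Fen1*, *Gins2*, *Chaf1a*, *Rfc2*, *Rfc4*, *Orc1*, and *Rfc5*. Beside *Rfc4* the overlapping gene was *Eif4a2*, with 119006 counts against 1570 over 12.7% of the length. *Eif4a2* passed as lower on Fibronectin, at -0.45 over the control (adjusted p 0.000738) and -0.42 over Collagen I (adjusted p 0.000829), while *Rfc4* was at 0.49, which passed, and 0.36, which did not. On Geltrex™ *Eif4a2* passed in neither comparison, and its difference between the coatings was 0.40 (adjusted p 0.0028). Near-identical processed pseudogenes were found for 7 genes, *Cdc6*, *Mcm7*, *Pcna*, *Rfc5*, *Rrm2*, *Tyms*, and *Wdhd1*, and only the copy of *Pcna* had more than 23 counts.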

How the data were processed

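RNA-seq of 12 samples in 4 groups of 3 was used. The deposited table holds a raw count of reads for each gene, which the authors made with Trimmomatic, HISAT2, and featureCounts, as the submitters' processing notes and the paper name them, and tested with DESeq2. The genome build, the annotation, and the rules for strand and for reads with several matches are not given in the sources used here. All 55536 identifiers are in GENCODE M21 (GRCm38), which gave names, positions, exon lengths, and overlaps. Promoters came from a RefSeq table of GRCm38.p6, of which the 250 bases before each start were read. Copies were processed pseudogenes at least 95% identical over at least 200 bases.

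Counts were fitted in R 4.3.3 with edgeR 4.0.16, with filterByExpr (minimum count 10, minimum total 15), which kept 14499 genes, TMM scaling, and 1 quasi-likelihood model of the 4 groups with 8 residual degrees of freedom. In each of 6 comparisons the Benjamini-Hochberg adjustment ran over the 14499 genes. Standard errors (SE) on the log2 scale were the absolute change over the square root of F. Total counts were 22520404 to 27351766 per sample, so genes with few counts have wide errors. The code was tested on simulated data.

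Alternatives were DESeq2 1.42.0, RLE scaling, no filter, at least 10 counts in every sample, a fold change of at least 2, only the groups compared, a block for the replicate number, Geltrex™ samples summed into 1, and leaving out each sample. Values in every sample are given for 20 members. These were, in each of 10 roles, the member with the highest mean CPM and the one with the largest change against Collagen I, plus those that passed against the direction of most members or in Collagen I against the control. Of each other list at most 4 genes with the highest mean CPM are named. The members and lists were chosen with earlier results of these data known. No set test or test of a summed level was run.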

Additional observations from a re-analysis of the deposited data

How the results depend on the processing

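Over RLE scaling and at least 10 counts in every sample, each count of members stayed within 1.5 times its value. Each median log2 fold change moved by less than 0.0754. That yardstick is the SD between replicates of the members' mean log2 of CPM plus 1, pooled over the groups, and not an error of the median. Members lower on Collagen I over the control, 2 in the report, were 10 by DESeq2 (2.49% of all genes), 9 with no filter (1.29%), and 1 with only the groups compared (0.222%), and 1 to 5 with 1 sample left out. Members higher on Geltrex™ over Fibronectin, 3 in the report, were 6 with only the groups compared (12.3% of all genes), 0 by edgeR with the Geltrex™ samples summed into 1 (2 at an unadjusted p below 0.05), and 0 to 9 with 1 sample left out. With the Geltrex™ samples summed, 0 members were lower on Geltrex™ over Collagen I by edgeR (1 at an unadjusted p below 0.05), 33 were higher there, and 30 over the control. Of all genes tested in this fit, 8.03% were higher and 5.57% lower over Collagen I, 7.30% higher over the control, and 2.28% higher over Fibronectin. Summing leaves 1 Geltrex™ sample, so the spread comes from the other groups alone, and the median log2 fold changes of 0.75 over the control and 0.95 over Collagen I stayed close to 0.74 and 0.93. The causes of the other shifts were not tested. With a fold change of at least 2 the counts fell by construction. Higher members were then 13 on Fibronectin and 15 on Geltrex™ over the control, 18 and 22 over Collagen I, and 0 on Geltrex™ over Fibronectin. Lower members were 0 on Fibronectin and 0 on Geltrex™ over the control, 0 and 0 over Collagen I, and 0 on Collagen I over the control.

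With 1 sample left out, the median log2 fold change ranged from -0.21 to -0.072 on Collagen I over the control, from 0.80 to 0.92 on Fibronectin over Collagen I, and from 0.018 to 0.17 on Geltrex™ over Fibronectin. Higher members ranged from 30 to 39 and from 37 to 40 on Fibronectin and Geltrex™ over the control, and from 36 to 37 and from 37 to 42 over Collagen I. The shares of all genes that were higher in these fits lay between 11.5% and 18.0% and between 12.3% and 17.4% over the control, and between 18.4% and 22.9% and between 14.4% and 19.3% over Collagen I.

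Same-numbered samples of different groups did not pair throughout: the correlations for Fibronectin and Collagen I, across genes, which are not independent replicates, were 0.0473, 0.169, and 0.225, and for Geltrex™ and Collagen I 0.02, -0.0471, and -0.0366. With a replicate block, 37 and 42 members were higher on Fibronectin and Geltrex™ over Collagen I, 39 and 40 over the control, and 3 on Geltrex™ over Fibronectin, while 2, *Rrm1* and *Rrm2*, were lower on Collagen I over the control. The shares of all genes in the same order were 23.0%, 19.2%, 17.1%, 16.5%, 9.21%, and 0.910%. In that paired fit *Mcm7* no longer passed as lower on Collagen I (adjusted p 0.0531, beside a range of 0.00496 to 0.174 over the alternatives), and *Rrm2* passed on Fibronectin over the control (0.0477, in a range of 0.0424 to 0.276).

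For the 20 members given by sample, a pass was lost in 24 cases and gained in 18, counted over every value and alternative, and no value that passed changed direction. In 31 further cases a value that passed in neither fit changed sign, at -0.058 to 0.2. Geltrex™ samples differed little from each other, with a chi-square per degree of freedom of 2.12 to 4.22 between pairs, against 18.9 to 28.3 in the control and on Fibronectin. On Collagen I it was 7.07 for samples 1 and 2, and 39.9 and 57.9 for the pairs with sample 3. So the Geltrex™ samples may share material, which would make every Geltrex™ p-value too low, and they were summed for that reason. As 1 fit pools the spread of all groups, p-values of the other comparisons may then be too low as well. With only the groups compared in the fit, 32 members were higher on Fibronectin over the control, beside 13.6% of all genes. With 158 counts in all, *Fen1* had the fewest of the members, and 78.8% of its exon length overlaps *Gm10143*. How reads over both genes were counted is not given, and its part in the low count was not tested.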
